A study of Mus musculus with 12 samples.

Results

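Oxidative phosphorylation (OXPHOS) subunits encoded in the nucleus were followed in RNA of the cerebellar cortex of mice on 3 diets. Members were the protein-coding genes whose mouse symbol is that of a subunit of complex I (Nduf), II (Sdh), III (Uqcr and Cyc1), IV (Cox) or V (Atp5), which gave 83 of the 54752 genes in the count table. Complex I held 36 members, complex II 4, complex III 9, complex IV 16 and complex V 18. Ndufa4 carries the name of complex I but is a subunit of complex IV and was placed there. The rule reads symbols and annotation only and uses no measured value.

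All 12 mice were wild-type (WT) males of an F1 hybrid of C57BL6J and FVB, sampled at 12 weeks. Ad libitum (AL) mice had food at all times, dietary restriction (DR) mice were given 30% less in 1 daily meal and were killed without the last one, and the third group was on a ketogenic diet (KD). The KD group is known from the sample labels alone, so its food, its duration and its hour of sampling are not given in the sources used here. Each diet had 4 mice, and the 4 AL and 4 DR mice were chosen by RNA quality from larger groups. The tissue was a piece of cortex without the cerebellar nuclei, and its poly(A) RNA was sequenced. Libraries held 31712084 to 40798644 counted reads on AL, 31749160 to 38430082 on DR and 35376210 to 38961800 on KD. The totals showed no difference between diets past the threshold in two-sided exact permutation tests (p = 0.6 for DR against AL, 0.8 for KD against AL and 0.257 for KD against DR, where 4 against 4 mice cannot give a p below 0.0286). Counts of any 2 mice fed alike varied beyond counting error, with a chi-square per gene of 4.601 to 10.5 over the 18 such pairs, where counting error alone gives about 1.

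The respiratory chain moves electrons from NADH (complex I) and succinate (complex II) through coenzyme Q to complex III, then through cytochrome c to complex IV, where oxygen is reduced. Complexes I, III and IV pump protons across the inner mitochondrial membrane, and complex V, the ATP synthase, uses the gradient to make ATP. Most subunits are encoded in the nucleus and imported, while the mitochondrial genome encodes a small set of the most hydrophobic ones. In the cerebellar cortex, as in brain generally, much of this ATP is spent on ion pumping after synaptic and action potentials.

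The tissue label was checked against markers of the cell types it could hold. Granule cell markers were abundant (Cbln3 at a mean of 1573 CPM, counts scaled to 1000000 per library with TMM factors), as were those of Purkinje cells (Itpr1 at 4147 CPM), Bergmann glia and astrocytes (Slc1a3 at 1265 CPM) and oligodendrocytes (Mbp at 1175 CPM). Defining markers of choroid plexus were near 0, with Ttr at 0.756 ± 0.483 CPM on AL, 0.762 ± 0.0739 CPM on DR and 3.41 ± 3.24 CPM on KD (SD, n = 4 each) and Kcnj13 below 0.4 CPM in each diet mean. All OXPHOS values are thus means over a mixture of neurons and glia, and fewer cells of a type and less RNA per cell cannot be told apart in such samples.

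Promoters of nuclear OXPHOS genes are known to share sites for the factors NRF1, GABPA (of the ETS family) and YY1 and for the nuclear receptor ERRA. RefSeq promoters of GRCm38.p6 (300 bases each, 250 of them before the start) were found for 65 of the 82 member symbols, 70 promoters in all. The letters GCATGCGC, a core of the NRF1 site, stood on either strand in 10 of these 70 promoters (14.3%) and in 2.71% of all 32851 promoters. The YY1 letters AAGATGGCG were present in 7 of the 70 and in 1.40% of all promoters. The ETS letters CCGGAAGT were present in 5 (7.14%, against 3.89%), and the ERRA letters TCAAGGTCA in 2 (2.86%, against 0.423%). The NRF1 letters and their reverse complement GCGCATGC can overlap, as they do in Atp5g2, and a promoter with both was counted once. A match describes the letters and does not show binding.

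Examples from complexes I, II, III and V are given with the motif in capitals (either strand) and 10 bases on each side, to show how the same letters recur close to the start of subunits of different complexes.
Sdhb, NRF1 letters 54 bases before the start, chr4:140961207-140961234, plus strand: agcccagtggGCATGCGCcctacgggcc
Ndufa8, NRF1 letters 8 bases before the start, chr2:36049329-36049356, minus strand: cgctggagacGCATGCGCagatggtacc
Uqcr11, NRF1 letters 4 bases before the start, chr10:80406808-80406835, minus strand: tcgccttcacGCATGCGCtatacgtctg
Atp5k, NRF1 letters 48 bases before the start, chr5:108434430-108434457, minus strand: tcactgcggcGCATGCGCctttctggct
Atp5h, ETS letters 39 bases before the start, chr11:115419941-115419968, minus strand: caaggagagaACTTCCGGcaactctctt
Atp5j, YY1 letters 88 bases before the start, chr16:84835046-84835074, minus strand: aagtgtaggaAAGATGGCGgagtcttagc

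Subunit c of the ATP synthase is made from 3 genes that give the same mature protein, and the 100 bases before their starts differ in these letters. They are shown, with that of Cox6b2, because these genes are named in the results on isoforms and on KD against DR. Whether the letters bear on the levels of these genes was not tested.
Atp5g1, chr11:96075632-96075731, minus strand: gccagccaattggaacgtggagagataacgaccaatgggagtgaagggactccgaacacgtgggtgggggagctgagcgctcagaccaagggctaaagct
Atp5g2, chr15:102671048-102671147, minus strand: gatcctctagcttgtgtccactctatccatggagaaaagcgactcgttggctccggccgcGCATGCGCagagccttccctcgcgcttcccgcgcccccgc
Atp5g3, chr2:73911327-73911426, minus strand: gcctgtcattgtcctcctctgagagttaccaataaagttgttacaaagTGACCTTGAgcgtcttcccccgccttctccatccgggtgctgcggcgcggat
Cox6b2, chr7:4753095-4753194, minus strand: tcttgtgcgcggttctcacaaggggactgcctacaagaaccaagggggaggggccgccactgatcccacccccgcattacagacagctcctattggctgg
Capitals mark the NRF1 letters in Atp5g2 and the reverse complement of the ERRA letters in Atp5g3. None of the 4 motifs was present in the 300 bases of Atp5g1 and Cox6b2.

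Members made up 0.737 to 0.922% of the scaled counts of a mouse. Their summed level was 8096 ± 513 CPM on AL, 8436 ± 492 CPM on DR and 8531 ± 529 CPM on KD (SD, n = 4 each). AL replicate 3 was lowest of all mice at 7371 CPM and KD replicate 4 highest at 9221 CPM, and the ranges of the 3 diets overlapped. Of the 83 members, 81 had enough counts to be tested in each comparison. Cox6a2, the heart and muscle form of a complex IV subunit, was left out at means of 0.0952 CPM on AL, 0.177 CPM on DR and 0.0270 CPM on KD, and a second entry named Atp5o, whose exons overlap those of the first and of Donson, had no count in any library.

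Levels between genes were compared as CPM per kilobase of exonic length. The median over the members of a complex, averaged over the 12 mice, was 33.9 CPM per kb for complex I, 50.5 for complex II, 58.9 for complex III, 78.4 for complex IV and 48.6 for complex V. The order of complexes II to V depends on the length used. With the length of 1 principal transcript per gene in place of all exons, the medians were 59.3, 72.3, 88.8, 117 and 124 CPM per kb for complexes I to V, so complex I was lowest and complex IV above complexes II and III under both, while complex V moved from below complex III to the top. This alternative was chosen after seeing the data.

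**Figure D1:**
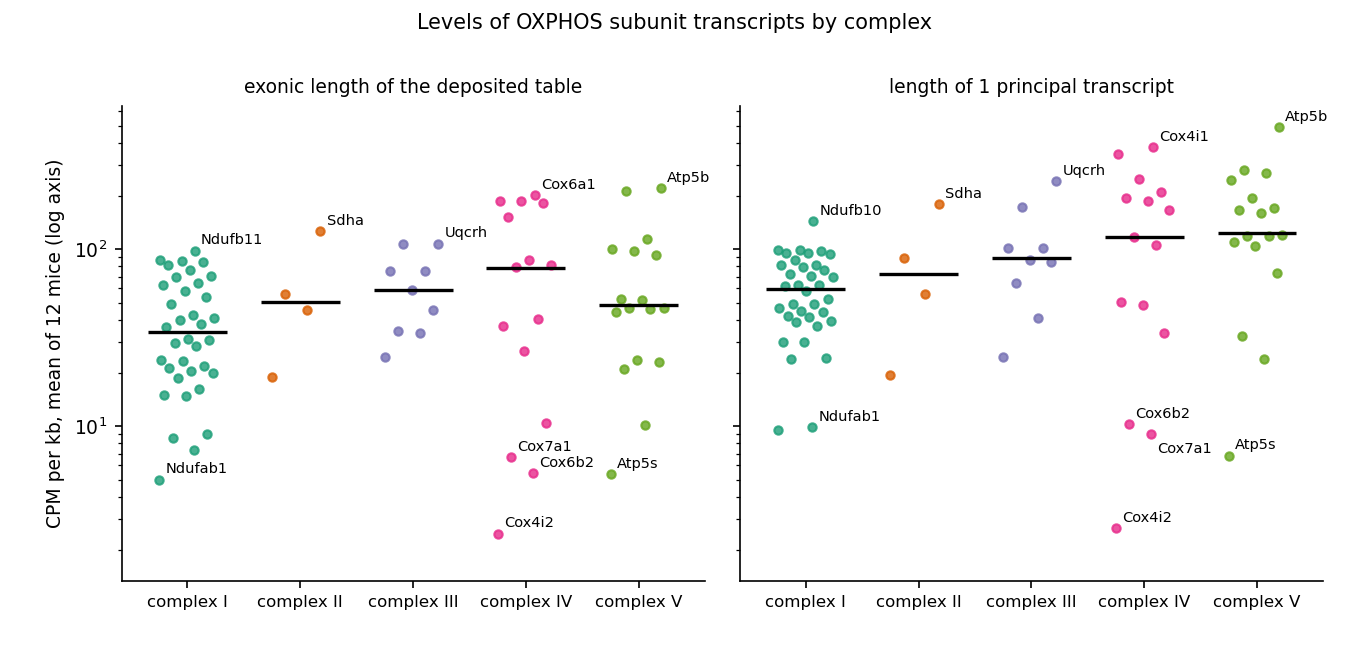
CPM per kb of each member (mean of 12 mice, log axis) by complex, by exonic length on the left and by the length of 1 principal transcript on the right. Black lines are medians over members, averaged over mice. Complex I has the lowest median on both sides. Cox4i2, Cox6b2 and Cox7a1 are the lowest of complex IV on both sides, with Cox5a (10.4 CPM per kb) close above them on the left.

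The most abundant member per kb in complex V was Atp5b, the catalytic beta subunit (chromosome 10, 128083273 to 128090391), at 221 CPM per kb of exonic length. In complex IV it was Cox6a1 at 202, in complex II the flavoprotein Sdha at 126, in complex III the hinge protein Uqcrh at 108 and in complex I the accessory subunit Ndufb11 at 98.2 CPM per kb. The level of Cox6a1 draws on DR replicate 2 and KD replicate 4 (211 CPM in both, against 97.3 to 158 CPM in the others). Cox4i1 was close to it at 187 CPM per kb, so the lead of Cox6a1 is not firm. With principal transcripts, Cox4i1 (378 CPM per kb) and Ndufb10 (143 CPM per kb) took the lead in complexes IV and I, and the other 3 leaders stayed the same. By exonic length, the lowest tested members were Ndufab1 in complex I (4.996 CPM per kb), the mitochondrial acyl carrier protein, Sdhc (19.0), the Rieske protein gene Uqcrfs1 (24.5), Cox4i2 (2.47) and Atp5s (5.34), also called coupling factor B. With principal transcripts, Ndufb2 (9.51 CPM per kb) was below Ndufab1 (9.88 CPM per kb). Exons of Ndufb5, Ndufb6, Ndufb9, Ndufb11, Ndufa2, Ndufa13, Uqcrc2, Cox5a, Atp5j and Atp5o overlapped those of another gene over more than 10% of their length. The kit does not mark strand, so their counts are uncertain.

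Within complex IV, the general isoform was far above the tissue-specific one in each group measured per kb. Cox4i2, the form known from lung and from low oxygen, made up 1.40 ± 0.148% of the Cox4i pair on AL, 1.118 ± 0.0722% on DR and 1.42 ± 0.109% on KD (SD, n = 4 each). Cox6b2, the form known from testis, made up 3.16 ± 0.148% of its pair on AL, 2.41 ± 0.265% on DR and 3.08 ± 0.236% on KD. Cox7a1, the heart and muscle form, was 8.36 ± 0.903% of the sum with Cox7a2 on AL, 7.08 ± 0.713% on DR and 7.15 ± 0.783% on KD. The DR mice were lowest for Cox6b2, with 2.06 to 2.65% against 2.95 to 3.27% on AL and 2.74 to 3.28% on KD, so DR overlapped neither group. The same held for Cox4i2, with 1.04 to 1.20% on DR, 1.23 to 1.58% on AL and 1.30 to 1.56% on KD. These shares depend on the length used. By principal transcript, the AL shares were 0.747% for Cox4i2, 5.12% for Cox6b2 and 7.98% for Cox7a1. A change of length cannot alter the order of mice within a pair, so it gives no second check of the overlap. The level of Cox4i2 itself overlapped, at 1.62 to 1.98 CPM on DR and 1.75 to 2.37 CPM on AL (log2FC -0.18, edgeR adjusted p = 0.598), and that of Cox4i1 was not called either (log2FC 0.15, adjusted p = 0.173). Cox7a2l, which joins complexes III and IV in supercomplexes, was at 52.9 ± 4.599, 58.3 ± 8.71 and 51.7 ± 2.41 CPM on AL, DR and KD.

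RNA of the 3 genes of subunit c was present at unequal levels. By exonic length, Atp5g3 gave 55.7 ± 2.37% of their sum on AL, Atp5g2 30.2 ± 1.92% and Atp5g1 14.2 ± 0.722% (SD, n = 4). On DR the shares were 54.8 ± 1.09%, 32.3 ± 0.754% and 13.0 ± 0.700%, and on KD 55.4 ± 1.29%, 30.5 ± 0.991% and 14.02 ± 0.635%. The order of the 3 genes was the same in all 12 mice and the groups overlapped for each. By principal transcript the order held, with AL shares of 66.7%, 27.5% and 5.87%.

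Medians of the 5 complexes lay close together within most mice and varied between mice of a diet. The median member differed from the AL mean by 0.06, 0.03, -0.11 and 0.02 on the log2 scale in AL replicates 1 to 4. On DR these values were 0.12, 0.06, -0.05 and 0.08, and on KD 0.09, 0.03, 0.003 and 0.18. AL replicate 3 was the lowest AL mouse for 66 of 81 members, where it was lowest for 29.4% of all 19052 genes tested. DR replicate 3 was lowest of its diet for 57 members (23.7% of all genes) and KD replicate 3 for 45 (26.4% of all genes). KD replicate 4 was highest of its diet for 56 (24.2% of all genes). The lowest mice of the 3 diets carry consecutive sample numbers in the labels, which do not say whether such mice were handled together, and the part of handling was not tested. Averaged over the mice of a diet, these medians were -0.0004 ± 0.0769 on AL, 0.0528 ± 0.0718 on DR and 0.0737 ± 0.0775 on KD (SD, n = 4 each).

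**Figure D2:**
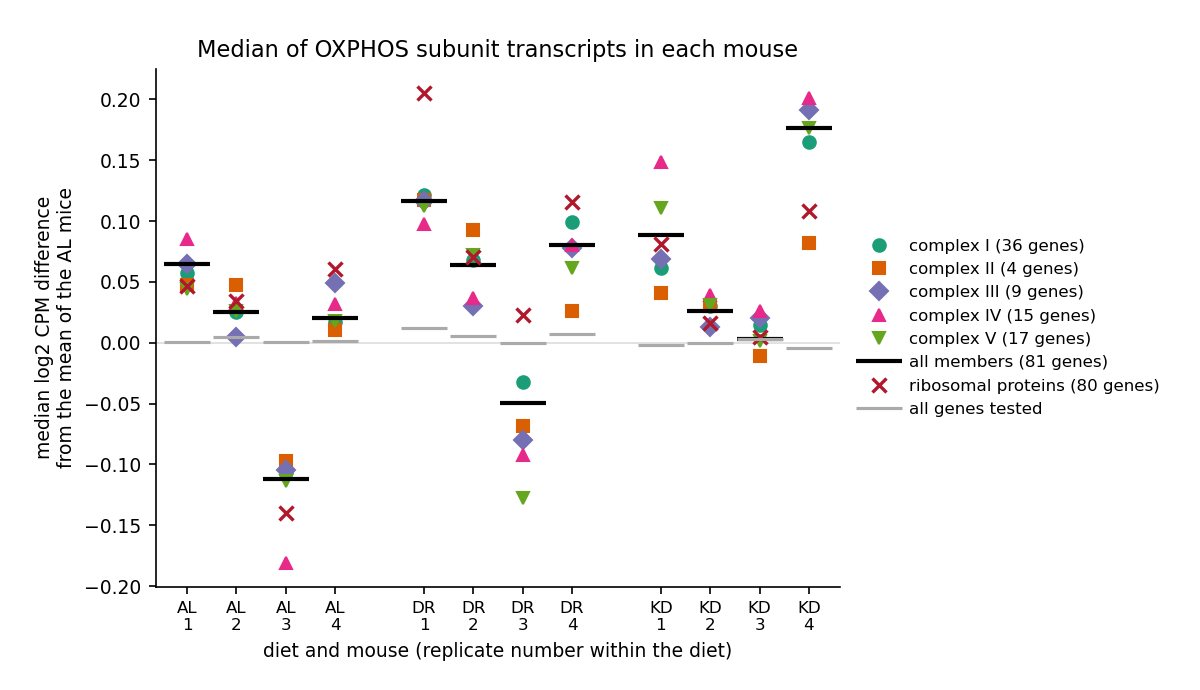
Median log2 CPM difference from the mean of the AL mice in each of the 12 mice, for the members of each complex (coloured symbols), all 81 members (black bars), 80 cytosolic ribosomal proteins (red crosses) and all genes tested (grey bars). The complexes lie on the same side of 0 in most mice, and AL replicate 3 is the lowest and KD replicate 4 the highest for all members.

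Ribosomal proteins, another set of short and abundant transcripts, were also lowest in AL replicate 3. Cytosolic ribosomal proteins had medians of 0.05, 0.03, -0.14 and 0.06 in the AL mice, 0.21, 0.07, 0.02 and 0.12 in the DR mice and 0.08, 0.02, 0.005 and 0.11 in the KD mice. All genes with exons of up to 1 kb, of which 20 were members, had a median log2FC of 0.05 in DR against AL. Those of over 1 to 2 kb (30 members) had one of 0.04. Medians were 0.02 for over 2 to 4 kb (20 members) and -0.02 for over 4 kb (11 members). In KD against AL these 4 values were 0.01, 0.02, 0.01 and -0.01. Of 80 ribosomal protein genes, 28 were higher on DR at an unadjusted p under 0.05 and 0 passed after adjustment by edgeR (1 by DESeq2), with a median log2FC of 0.11. The part that transcript length, RNA quality or cell makeup has in the shared shift of the members was not tested.

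The DR and AL mice were compared to ask whether transcript levels of the respiratory chain differ on restricted food. By edgeR with a false discovery rate of 0.05 (Benjamini-Hochberg), 0 members were differentially expressed, while 583 of 19052 genes (3.06%) were, 252 of them higher on DR and 331 lower (322 and 243 when scaled by library size only). Their median log2 fold change (log2FC, DR over AL) was 0.06 (a change of 4.32%), with 65 of 81 above 0, beside a median of 0.004 for all genes. At an unadjusted p under 0.05 there were 5 higher members (6.17%, where all genes gave 9.02%) and 1 lower (1.23%, where all genes gave 8.98%). DESeq2 called 0 members and also gave 5 and 1 at that level. The diets did not overlap for 3 members that were higher on DR (3.7%, beside 5.3% of all genes) and for 0 that were lower (beside 5.64%). The 95% interval lay between a 20% decrease and a 25% increase for 70 of the 81 members and for 9630 of all 19052 genes.

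The members higher on DR at an unadjusted p under 0.05 were Ndufa7, Ndufv3, Ndufb4, Cox4i1 and Atp5g2. Ndufa7, an accessory subunit of complex I (chromosome 17, 33824572 to 33838317), was at 27.9, 26.2, 23.9 and 25.3 CPM in the AL mice and 30.4, 30.3, 27.2 and 29.8 CPM in the DR mice. The lowest DR mouse lay just below the highest AL mouse, and log2FC was 0.19 ± 0.06 (SE; edgeR adjusted p = 0.128). Atp5g2 reached from 80.6 CPM to 83.995 CPM in the AL mice and from 84.011 CPM to 98.3 CPM in the DR mice, so the groups all but touched (log2FC 0.12 ± 0.05, SE; edgeR adjusted p = 0.198). Ndufb4 and Ndufc1, also without overlap of the groups, had log2FC of 0.14 and 0.10. The former has a near copy in the annotation (Ndufb4c, at 28.4 ± 1.90 CPM on AL), and reads may be split between them.

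Only Cox6b2 was lower on DR at that level. Cox6b2 (chromosome 7, 4751792 to 4753094) was at 6.93, 6.53, 5.62 and 6.53 CPM in the AL mice and at 5.11, 3.99, 5.03 and 5.74 CPM in the DR mice. DR replicate 4 was above AL replicate 3, and all other DR mice were below all AL mice. For this gene log2FC was -0.36 ± 0.12 (SE; edgeR adjusted p = 0.116). Of the other members, the lowest estimates were those of Cox4i2 (-0.18) and Cox7a1 (-0.16; edgeR adjusted p = 0.64). Cyc1, the cytochrome c1 of complex III, had a log2FC of -0.07 and Atp5g1 one of -0.11 (edgeR adjusted p = 0.467 and 0.31). Without AL replicate 4, the estimate for Atp5g1 was -0.065.

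By complex, the median log2FC in DR against AL was 0.07 for complex I, 0.03 for complexes II and III, 0.08 for complex IV and 0.04 for complex V. Of the 36 members of complex I, 34 were above 0, and the 7 core subunits and the 29 accessory ones had the same median of 0.07. The lowest estimate of complex I was that of Ndufab1 (-0.04). In complex II the catalytic Sdha and Sdhb had log2FC of 0.07 and 0.08, and the membrane anchors Sdhc and Sdhd ones of -0.001 and -0.03. In complex III the core proteins Uqcrc1 and Uqcrc2 were at 0.08 and 0.07, and the redox subunits Cyc1 and Uqcrfs1 at -0.07 and -0.02. With 1 mouse left out, Uqcrc1 ranged from 0.019 (without DR replicate 2) to 0.14 (without DR replicate 3) and Cyc1 from -0.088 to -0.033 (without DR replicate 3). Ndufab1 ranged from -0.090 (without DR replicate 1) to -0.0011 (without AL replicate 4). The range of Sdhb was from 0.046 (without AL replicate 3) to 0.11 (without DR replicate 3). None of these passed the test, and the differences among subunits of a complex were not tested. Without AL replicate 3, the median of all members was 0.017 and those of complexes I, II, III and IV were 0.035, 0.00034, -0.0040 and 0.014, and without DR replicate 1 that of complex V was 0.0016, so the order of the complexes is not firm. With the trend on exonic length (all exons of a gene) removed, the median of all members was 0.033. Those of complexes I to V were then 0.039, 0.018, -0.0017, 0.039 and 0.031.

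**Figure D3:**
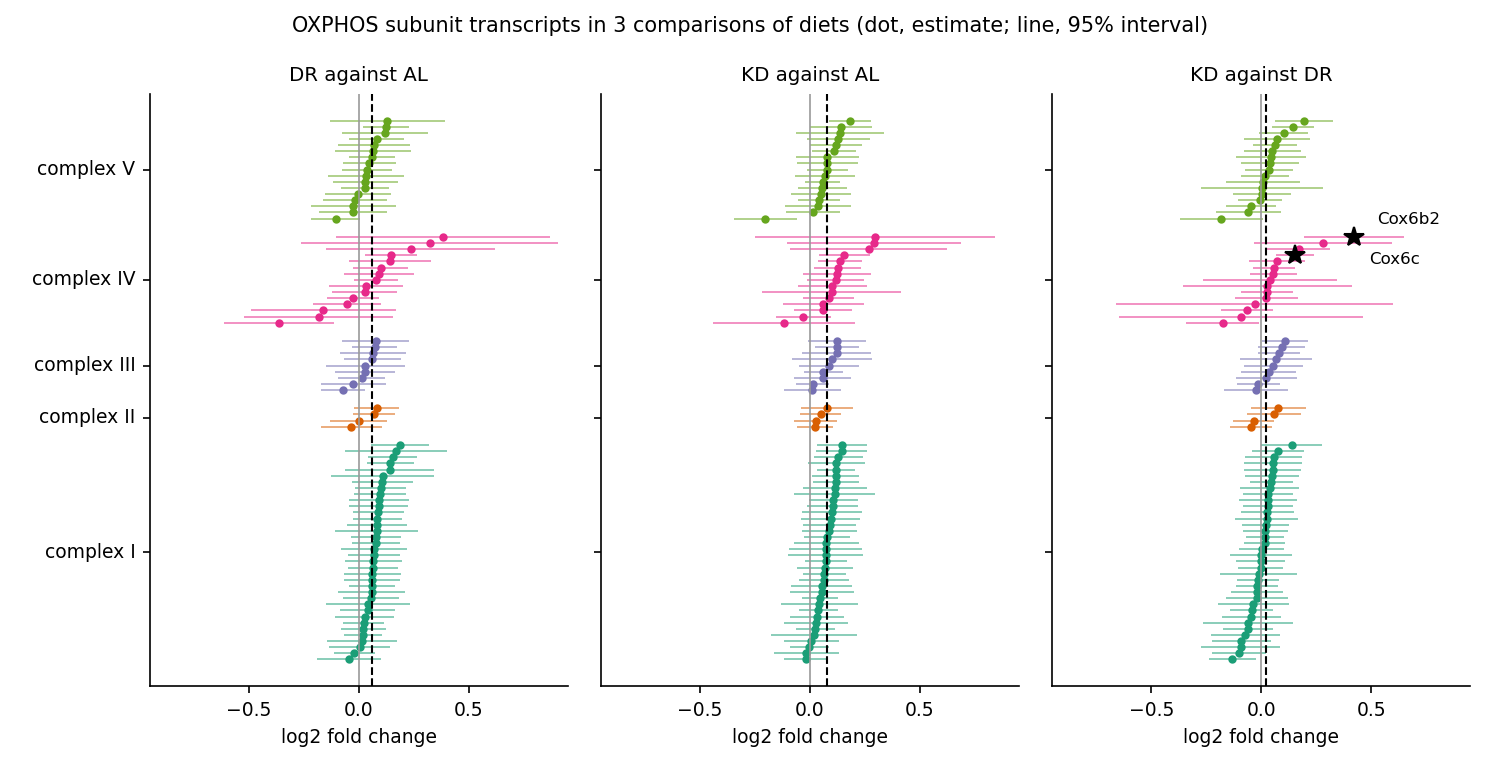
Log2 fold change (dot) and 95% interval (line) of the 81 tested members in DR against AL, KD against AL and KD against DR, grouped by complex and sorted within it, with the median of all members as a dashed line. Stars mark Cox6b2 and Cox6c, the 2 members past an adjusted p of 0.05. Most estimates lie to the right of 0 in the comparisons with AL, and the widest intervals are in complex IV.

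KD and AL were compared in the same way. By edgeR 0 members and 0 of the 19036 genes (0.0%) were differentially expressed, while 928 genes had an unadjusted p under 0.05. DESeq2 called 10 genes and 0 members. The median log2FC of the members was 0.08 (a median change of 5.59%), with 75 of 81 above 0, beside a median of 0.0002 for all genes. At an unadjusted p under 0.05, 13 of 81 members were higher (beside 2.39% of all genes) and 1 was lower (1.23%, beside 2.48%). Since the members of a mouse tended to lie on the same side, as given above, these 13 are not separate observations, and DESeq2 gave 14. The diets did not overlap for 3 members higher on KD (3.7%, beside 1.41% of all genes) and 1 lower (1.23%, beside 1.55%). The interval lay between a 20% decrease and a 25% increase for 74 members and for 11198 of all 19036 genes.

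The 3 members without overlap were Ndufa8, Ndufa4 and Atp5e. Atp5e, the epsilon subunit of the F1 head (chromosome 2, 174461072 to 174464105), was at 76.3, 78.7, 75.6 and 85.7 CPM in the AL mice and 92.7, 88.1, 87.1 and 89.9 CPM in the KD mice. All KD mice were above all AL mice. A log2FC of 0.18 ± 0.04 (SE) came with the lowest adjusted p of the members, 0.694 by edgeR. Ndufa4 was at 183.5 to 207 CPM on AL and 209.8 to 234 CPM on KD (log2FC 0.14 ± 0.05, SE). Ndufa8, an accessory subunit with paired cysteines, was at 61.8 to 63.4 CPM on AL and 64.2 to 71.2 CPM on KD (log2FC 0.12). Atp5s was the lower one, at 11.6, 11.9, 10.8 and 11.6 CPM on AL and 10.1, 9.56, 9.96 and 10.2 CPM on KD, with log2FC at -0.20 ± 0.07 (SE; edgeR adjusted p = 0.981).

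By complex, the medians in KD against AL were 0.07 (I), 0.04 (II), 0.09 (III), 0.12 (IV) and 0.08 (V). All members of complexes II and III were above 0, with the 5 small subunits of complex III between 0.09 and 0.12. The largest estimates of each complex were those of Ndufb6 (0.14), Sdhc (0.08), Uqcrb (0.12), Cox8a (0.30) and Atp5e (0.18), and the lowest those of Ndufb2 (-0.02), Sdha (0.02), Uqcrfs1 (0.01), Cox7a1 (-0.12) and Atp5s (-0.20). Sdhc was at 0.029 without KD replicate 4 and Uqcrb at 0.072 without AL replicate 3. Ndufb2 ranged from -0.046 (without AL replicate 2) to -4.9e-05 (without KD replicate 1). The range of Sdha was from 0.0061 (without KD replicate 4) to 0.049 (without KD replicate 3). Without AL replicate 3 the median of all members was 0.038 and those of complexes I, II and V were 0.033, 0.011 and 0.038, and without KD replicate 4 that of complex III was 0.02 and that of complex IV 0.06.

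The comparisons with AL share the 4 AL mice, so a like direction in both is not a repeated result. KD was also set against DR directly, with the DR and KD mice of those comparisons. Here 942 of 19087 genes (4.94%) were differentially expressed by edgeR, 463 higher on KD (2.43%) and 479 lower (2.51%), or 376 and 617 when scaled by library size only. Of the members 2 passed, both higher on KD and both in complex IV (2.47% of 81), and 0 were lower. The median log2FC of the members was 0.02, with 51 of 81 above 0. This median was -0.0043 without KD replicate 4 and 0.057 without DR replicate 1. At an unadjusted p under 0.05, 7 members were higher (8.64%, beside 9.29% of all genes) and 2 lower (2.47%, beside 9.39%). The diets did not overlap for 3 members higher on KD (3.7%, beside 6.03%) and for 0 lower (beside 5.79%).

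Cox6b2 was the member with the largest difference. In the KD mice it was at 6.73, 6.37, 6.89 and 6.72 CPM, above each DR mouse (3.99 to 5.74 CPM) and within the AL range. Here log2FC was 0.42 ± 0.11 (SE; 95% interval 0.20 to 0.65; edgeR adjusted p = 0.0316). Cox6c, another small nuclear subunit of complex IV (chromosome 15, 35925886 to 35938246), was at 155, 150.3, 149.3 and 156 CPM in the KD mice and 141, 131, 138 and 139.7 CPM in the DR mice, again without overlap. The difference was a log2FC of 0.15 ± 0.04 (SE; 95% interval 0.07 to 0.24), with edgeR adjusted p = 0.0411. Its AL mice ranged from 131 to 157 CPM and overlapped both other diets.

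Both calls were lost in most fits with fewer mice. With 1 mouse left out at a time, Cox6b2 passed only without DR replicate 4 and Cox6c only without DR replicate 1, with adjusted p of 0.0196 to 0.0928 and 0.0376 to 0.126 over the 8 fits. Without DR replicate 2 and KD replicate 4, which stand apart below, neither passed (adjusted p = 0.134 and 0.228 by edgeR). In all fits, log2FC stayed between 0.33 and 0.50 for Cox6b2 and between 0.12 and 0.16 for Cox6c.

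The third member without overlap was Atp5g1 (chromosome 11, 96068852 to 96075670), the least abundant gene of subunit c. It was at 121, 117, 114.4 and 117 CPM on KD and 109.5, 103, 100.3 and 112 CPM on DR, with log2FC at 0.14 ± 0.04 (SE; edgeR adjusted p = 0.0796). Atp5e was at 87.9, 69.9, 71.9 and 82.4 CPM on DR, and DR replicate 1 lay within the KD range of 87.1 to 92.7 CPM. For Atp5e log2FC was 0.20 ± 0.06 (SE; edgeR adjusted p = 0.0876). DESeq2 called Atp5g1 (adjusted p = 0.0304) and Atp5e (adjusted p = 0.04) beside Cox6b2 and Cox6c. That made 4 of 81 members, where DESeq2 called 1322 of all 19087 genes.

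**Figure D4:**
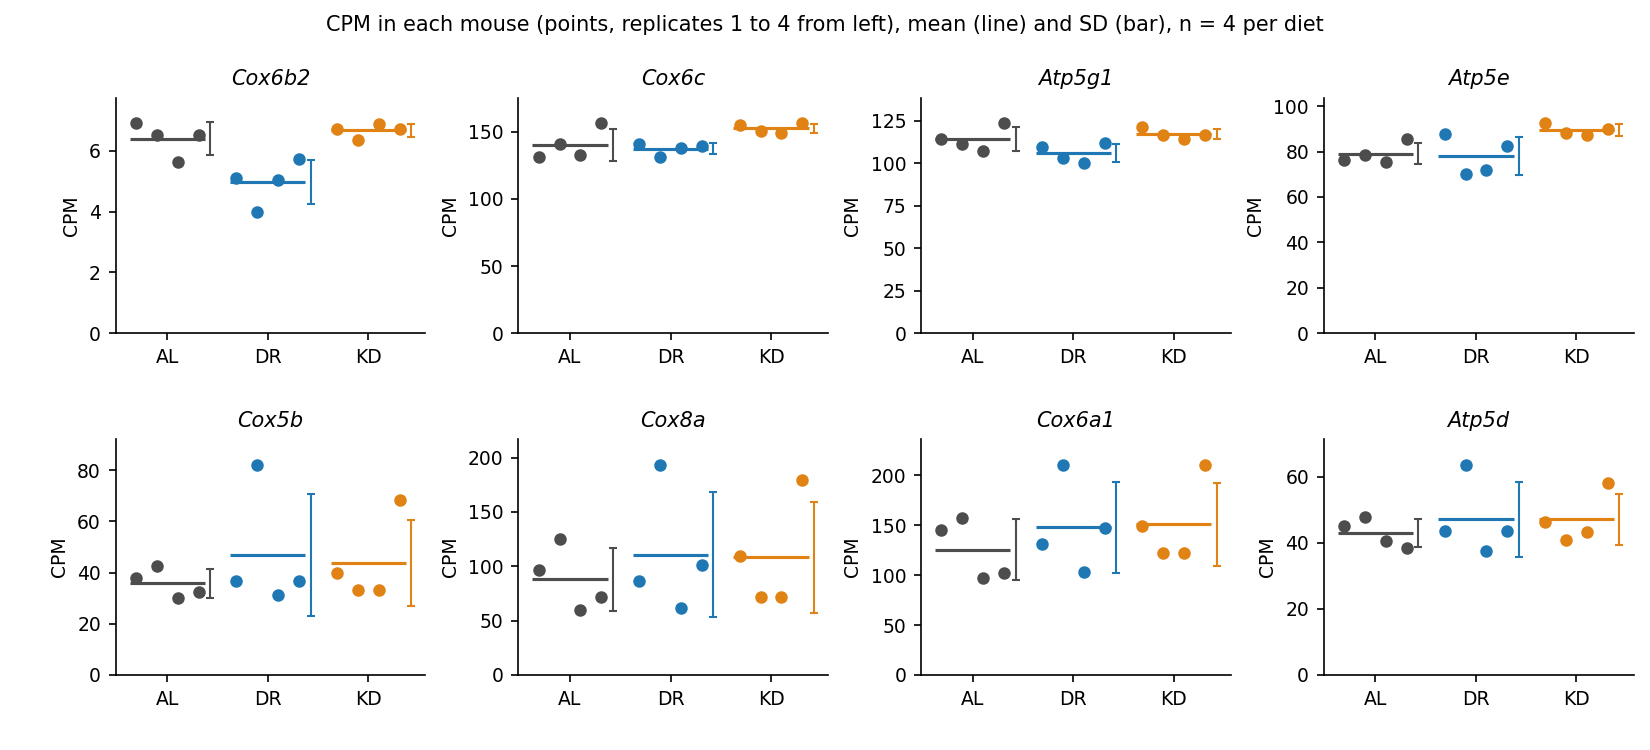
CPM of 8 members in each mouse (points, replicates 1 to 4 from left to right within a diet), with the mean (line) and SD (bar) of the 4 mice of each diet. In the upper row the KD mice lie above the DR mice for Cox6b2, Cox6c and Atp5g1 and overlap 1 DR mouse for Atp5e. In the lower row DR replicate 2 and KD replicate 4 stand above the other mice for all 4 genes.

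Complex IV also held the members with the widest spread. Cox5b, a zinc-binding subunit (chromosome 1, 36691449 to 36693681), was at 82.2 CPM in DR replicate 2 and 68.5 CPM in KD replicate 4, and at 29.96 to 42.5 CPM in the other mice. Cox8a (chromosome 19, 7215158 to 7217616) was at 193.6 and 179 CPM in these mice and at 60.002 to 125 CPM in the others. Cox6a1 was at 211 CPM in both, against 97.3 to 158 CPM, and Atp5d, the delta subunit of the F1 head, at 63.6 and 58.1 CPM, against 37.5 to 47.8 CPM. These mice were the 2 highest of the 12 for 12 of 81 members (14.8%), and for 423 of 19052 genes (2.22%). Ndufa10, Ndufa6, Ndufb4, Ndufc2, Uqcrc1, Atp5a1 and Atp5b were also among the 12.

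These 2 mice set the size of several estimates. In DR against AL, log2FC of Cox5b was 0.38 ± 0.23 (SE; edgeR adjusted p = 0.414) and -0.03 without DR replicate 2, and that of Atp5d moved from 0.13 to -0.05. That of Cox8a in KD against AL was 0.30 ± 0.26 (SE) and -0.07 without KD replicate 4. Genes with over 60% GC had medians of 0.03 in DR replicate 2 and 0.02 in KD replicate 4, against 0.08 in KD replicate 2 and -0.10 in DR replicate 1. By principal transcript, Cox5b is at 49.0% GC and Cox8a, Cox6a1 and Atp5d at 58.5, 58.8 and 59.3%, so none is among these genes. With a trend on GC content removed, log2FC of Cox5b in DR against AL was 0.39. Red blood cell transcripts summed to 494 CPM in DR replicate 2, the highest of the 12 mice, and to 241 CPM in KD replicate 4. The part of GC content or blood in the levels of these mice was not tested.

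**Figure D5:**
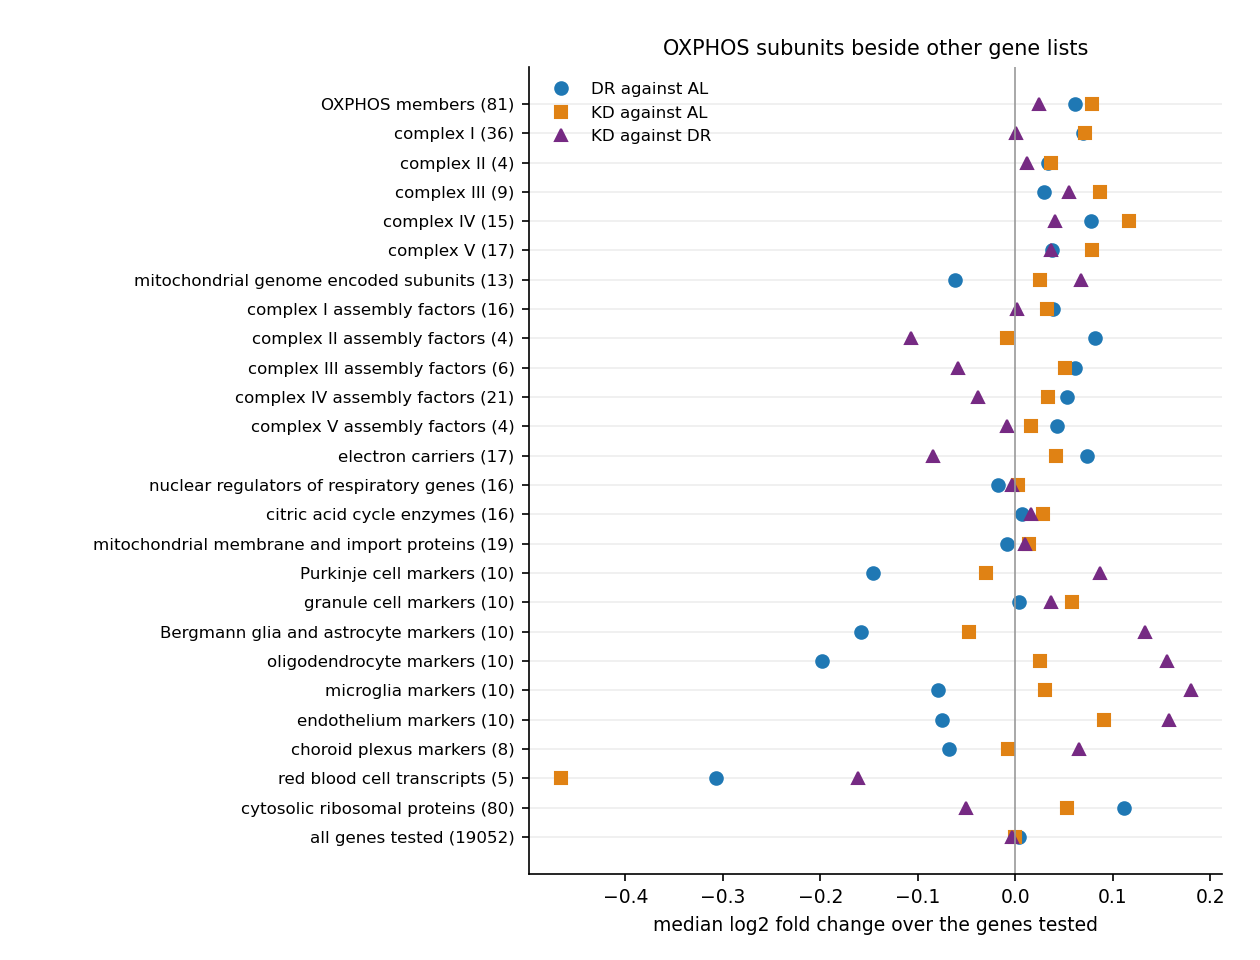
Median log2 fold change of the OXPHOS members, each complex, 19 other gene lists and all genes in the 3 comparisons (genes tested in brackets). The members lie right of 0 in all 3, while assembly factors and ribosomal proteins lie right of 0 in DR against AL, and glial and Purkinje cell markers left of it.

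Genes of the same pathway outside the rule were read from lists. The 13 protein-coding genes of the mitochondrial genome had a median log2FC of -0.06 in DR against AL, 0.03 in KD against AL and 0.07 in KD against DR. By edgeR 0 of them passed in the 3 comparisons, while at an unadjusted p under 0.05 there was 1 lower on DR than on AL and 3 higher on KD than on DR, where DESeq2 called 2. Their summed level was 36268 ± 2038 CPM on AL, 34883 ± 2128 CPM on DR and 36522 ± 994 CPM on KD (SD, n = 4 each), led by mt-Co1 at a mean of 10469 CPM. On DR the nuclear members had a median above 0 and the mitochondrial ones a median below 0, and this difference was not tested.

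Assembly factors place subunits and cofactors. The lists for complexes I (16 genes tested), II (4), III (6), IV (21) and V (4) had 0 genes past edgeR's test in the 3 comparisons, where DESeq2 called 1 for complex IV in KD against DR. In DR against AL, the unadjusted p was under 0.05 for 2, 1, 2, 2 and 0 of them, all higher. Their medians in DR against AL were 0.04, 0.08, 0.06, 0.05 and 0.04, and those in KD against AL lay between -0.01 and 0.05. Of the 16 citric acid cycle enzymes and 19 membrane and import proteins, 0 passed edgeR's test in any comparison (DESeq2 called 1 enzyme in KD against DR), with medians of 0.01 and -0.01 in DR against AL. At an unadjusted p under 0.05 there was 1 lower enzyme on DR than on AL and 2 were higher on KD than on DR. Cs, citrate synthase, was at 214 ± 4.09 CPM on AL, 200.1 ± 5.16 CPM on DR and 213 ± 7.20 CPM on KD (edgeR adjusted p = 0.21 for DR against AL). The inhibitor of ATP synthase, listed as Atpif1, was at 24.2 ± 1.97, 26.4 ± 0.831 and 26.01 ± 0.837 CPM on AL, DR and KD, with an adjusted p of 0.315 by edgeR for DR against AL.

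Among 17 electron carrier genes, 1 rose and 1 fell on DR by edgeR and DESeq2 called 3, while at an unadjusted p under 0.05 there were 7 higher and 1 lower, with a median log2FC of 0.07. Coq10b, which binds coenzyme Q, was at 20.9, 24.4, 16.5 and 18.5 CPM in the AL mice and 11.8, 16.04, 13.7 and 12.5 CPM in the DR mice, without overlap. It fell by 0.58 on the log2 scale (SE 0.12, edgeR adjusted p = 0.0157), and was 0.46 higher on KD than on DR (adjusted p = 0.0116). Coq8a, a kinase-like protein of coenzyme Q synthesis whose loss is known to cause cerebellar ataxia, lay between 30.3 and 33.9 CPM in the AL mice and rose to 36.4 to 41.7 CPM in the DR mice. The log2FC was 0.26 ± 0.06 (SE; edgeR adjusted p = 0.031), and -0.31 in KD against DR (adjusted p = 0.0124). Cytochrome c (Cycs) was at 184 ± 16.98, 175 ± 9.501 and 197.5 ± 11.5 CPM on AL, DR and KD and passed in no comparison.

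Of 16 nuclear regulators of respiratory genes, 1 fell on DR by edgeR and DESeq2 called 2, while at an unadjusted p under 0.05 there were 1 higher and 3 lower, with a median log2FC of -0.02. Ppargc1b, a coactivator of ERR and NRF1 related to Ppargc1a, was at 84.5, 89.1, 91.7 and 91.1 CPM in the AL mice, 52.5, 71.8, 68.3 and 79.1 CPM in the DR mice and 93.5, 92.9, 96.6 and 83.8 CPM in the KD mice. The DR mice lay below both other diets. Expression fell by 0.39 on the log2 scale (SE 0.09, edgeR adjusted p = 0.0295) and was 0.43 higher on KD than on DR (adjusted p = 0.00992). Esrrb, an orphan receptor of the ERR family, was at 16.7 to 17.6 CPM on DR and 12.5 to 15.3 CPM on KD, with a log2FC of -0.36 in KD against DR (adjusted p = 0.00971 by edgeR), and in DR against AL its adjusted p was 0.0542. Ppargc1a, Nrf1, Gabpa, Esrra and Tfam, the factor that packs mitochondrial DNA and starts its transcription, passed in no comparison, with log2FC of 0.04, 0.06, 0.06, 0.06 and -0.03 in DR against AL.

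Some markers of cell types were differentially expressed between diets. Among those that fell on DR were Car8 of the Purkinje cell list, 3 of 10 markers of Bergmann glia and astrocytes (Aqp4, Gja1 and Hopx) and 1 of 8 of choroid plexus (Enpp2, which oligodendrocytes also express), and 0 markers of these lists rose. Car8 was at 1153 ± 34.0 CPM (SD, n = 4) in AL mice and 973 ± 82.5 CPM in DR mice (log2FC -0.25 ± 0.06, SE; edgeR adjusted p = 0.0327). Summed Purkinje cell markers were at 8717 ± 247 CPM on AL, 7597 ± 484 CPM on DR and 8537 ± 98.6 CPM on KD. Those of Bergmann glia and astrocytes were at 3101 ± 59.0, 2774 ± 61.6 and 3014 ± 62.6 CPM, those of oligodendrocytes at 2716 ± 317, 2468 ± 252 and 2746 ± 93.2 CPM, and those of granule cells at 7304 ± 284, 7451 ± 171 and 7455 ± 154 CPM.

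In KD against DR, markers that were higher included Car8, Aqp4, Hopx, Sox9, Mag, Sox10, Kdr, Enpp2, Ttr and Fat2, and Cbln3 was lower, with Ttr at 0.371 to 7.95 CPM in the KD mice. The endothelial list gave 1 such gene (Kdr), and the microglial and red blood cell lists gave 0 in all 3 comparisons by edgeR (1 microglial gene in KD against DR and 1 red blood cell gene in KD against AL by DESeq2). At an unadjusted p under 0.05, 3 microglial genes were lower on DR than on AL, 2 were higher on KD than on AL, and 4 microglial and 5 endothelial genes were higher on KD than on DR (median log2FC of the lists 0.18 and 0.16). All 5 red blood cell genes were lower on KD than on AL at that level. Red blood cell transcripts summed to 353 ± 65.4 CPM on AL, 176 to 494 CPM in the DR mice and 254 ± 17.4 CPM on KD, led by Hba-a1. The part that a changed cell makeup has in the level of Cox6b2, Cox6c or the other members was not tested.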

How the data were processed

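Poly(A) RNA of 12 mice was read from 1 deposited table of raw read counts per gene. Per the labels and the study's methods, the authors trimmed reads with Trimmomatic 0.39, aligned them with STAR 2.7.0f to GRCm38.p6 with the GENCODE M20 annotation and counted them with featureCounts (Subread 1.6.4), and the deposited counts are not normalized. The strand setting is not given in the sources used here, and the kit does not mark strand. Diets came from the labels, and replicates were numbered in accession order.

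Symbols of 54723 genes were matched from GENCODE M21. The 8 libraries of 2 diets were fitted at a time with edgeR 4.0.16 in R 4.3.3, using filterByExpr (minimum count 10, minimum total 15), TMM scaling, the quasi-likelihood test and Benjamini-Hochberg adjustment over all genes tested at 0.05. CPM used TMM factors over all 12 libraries, and log2 CPM a prior count of 2. Standard errors were derived from the fold change and its F value. Alternatives were DESeq2 1.42.0, other scalings and filters, and 1 fit of all libraries. Trends on exonic length or GC content were also removed, mitochondrial counts left out and each mouse left out. The fits were tested on simulated counts.

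Members and lists were chosen with earlier results of these data known. Genes named were the called members, for each complex the most abundant member per kb and the largest changes against AL among members of at least 1 CPM, isoform groups, Atpif1 and Ndufa4, called genes of the lists (at most 5 per comparison), 7 genes named whatever their result (Ppargc1a, Nrf1, Gabpa, Esrra, Tfam, Cycs and Cs) and members with an outlying mouse. Others, among them Ndufb4, Ndufv3, Ndufc1, Ndufa8, Atp5g2 and the members highest in DR replicate 2 and KD replicate 4, were named after their values were seen. Some genes that this rule names are not reported here.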

Additional observations from a re-analysis of the deposited data

Results flagged for a closer look

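In 342 groups of 4 mice (each member and named list gene or median in each diet), 1 mouse stood apart from the other 3 beyond Dixon's 95% limit in 11, and chance flags about 1 in 20. Of the members, Cox5b was at 82.2 CPM in DR replicate 2 against 31.3 to 36.8 CPM in the other DR mice. Ndufs1, the largest core subunit of complex I, was at 140.2 CPM in AL replicate 1 against 128 to 129.5 CPM. Ndufa9 was at 87.3 CPM in DR replicate 3 against 90.5 to 90.8 CPM, and Ndufa3 at 39.9 CPM in AL replicate 4 against 34.0 to 34.5 CPM. Ndufs6 and Cyc1 were lowest in AL replicate 3, at 21.3 CPM against 25.9 to 26.5 CPM and at 95.6 CPM against 99.9 to 100.7 CPM, and the median of complex V in that mouse was -0.11 on the log2 scale against 0.02 to 0.04.

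Among marker genes, Aqp4 was at 154 CPM in DR replicate 2 against 130.4 to 131 CPM, Hopx at 90.4 CPM in AL replicate 2 against 75.0 to 76.4 CPM, Sox10 at 11.5 CPM in AL replicate 2 against 17.3 to 17.9 CPM, and Kdr at 9.95 CPM in KD replicate 1 against 13.4 to 13.9 CPM.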

How the results depend on the processing

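Counts of called members stayed at 0 in DR against AL and KD against AL under all alternatives run except no filter on low counts, which called 3 (Cox5b, Cox6a1 and Cox8a) and 4 (these and Atp5e); the cause was not tested. In KD against DR the 2 calls became 4 with DESeq2, 4 with no filter on low counts, 3 with the length trend removed (Atp5e added), 1 with library size only, 1 with all 12 libraries in 1 fit, 0 without DR replicate 2 and KD replicate 4 (added after seeing the data), and 0 to 2 with 1 mouse left out. Over all genes, 583 calls in DR against AL became 1014 with DESeq2, 1258 with no filter and 235 to 712 with 1 mouse left out. The 0 calls in KD against AL became 10, 118 and 0 to 6. The 942 in KD against DR became 1322 with DESeq2, 1503 with no filter and 467 to 946 with 1 mouse left out. In KD against AL, log2FC of Uqcrfs1 was -0.0031 with the length trend removed. By principal transcript length, added after seeing the data, median levels of complexes I to IV were 47.8, 58.3, 71.5 and 94.1% of that of complex V.

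With 1 mouse left out, estimates that changed sign ranged from -0.099 to 0.0011 for Sdhd, -0.032 to 0.53 for Cox5b and -0.049 to 0.22 for Atp5d in DR against AL, and from -0.038 to 0.060 for Uqcrfs1, -0.19 to 0.019 for Cox7a1 and -0.065 to 0.51 for Cox8a in KD against AL. The median of all members ranged from 0.017 to 0.092 in DR against AL, 0.038 to 0.10 in KD against AL and -0.0043 to 0.057 in KD against DR. No paired analysis was run, because the labels and columns give no replicate numbers and name no sets of mice across diets. The sample numbers do run in consecutive sets of 1 mouse per diet, which share a replicate number here. In each set the median of all members was higher on DR and on KD than on AL, by least in replicate 2 for KD (0.0262 against 0.0255). Whether the mice of a set were handled together is not stated, and a difference within sets was not tested. Cox4i2, Cox7a1 and Cox6b2 lie at a few CPM, so counting error weighs more on them than on other members.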
